A study of Homo sapiens with 6 samples.

Results

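The 32 genes described here act in mitosis, the division of a cell's duplicated chromosomes between its daughter cells. They were listed by name from the G2/M cyclins, mitotic kinases, kinesin motors, and spindle, checkpoint and centromere genes. All 32 symbols matched a gene identifier, of 20263 identifiers in the count table, and all passed the filter on low counts, with 197 to 38475 counts per gene and library. The RNA came from MV4-11, an acute myeloid leukemia cell line of human origin, whose genotype the labels give as WT. The cells were exposed for 24 h to 100 nM venetoclax, to 2.5 µM cyclosporine A (CSA), or to both drugs together, for which no separate doses are stated in the labels. Each of the 3 groups had 2 libraries, and every group carried at least one drug, so each comparison below is between treatments and none is with untreated cells. Venetoclax inhibits the survival protein BCL2, and CSA binds cyclophilins and inhibits calcineurin. The labels do not state whether replicates came from separate cultures, and the p-values therefore reflect only how much these libraries vary, which may be technical variation.

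As background, entry into mitosis is driven by the kinase CDK1 bound to its cyclins. Mitotic kinases, kinesins and kinetochore proteins then build the spindle and attach the chromosomes to it, and the anaphase-promoting complex, a ubiquitin ligase, ends mitosis by marking cyclin B and securin for destruction. Most of these genes are transcribed late in the cell cycle, from S phase to mitosis, and their messenger RNA is low in resting cells, which is why genes such as MKI67 serve as proliferation markers in leukemia. In bulk RNA such as this, fewer cells in G2 and mitosis and less RNA per cell cannot be told apart.

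One library, venetoclax replicate 2, was unlike the other 5, so each main result below is given with and without it. Mitochondrially encoded genes held 41.5% of its counts, against 7.41% to 15.2% in the others, at similar total counts (26567900 to 30738957 per library). Levels are CPM, the depth-scaled count, with TMM scaling (trimmed mean of M-values), and fold changes are log2 values from edgeR. Their standard error (SE) was derived from the edgeR test, as the absolute fold change divided by the square root of the F statistic. All 12 markers listed for a myeloid leukemia line were at 1 CPM or more in each library, with a summed level of 2223 to 2569 CPM. The 4 T cell markers had no count, the 4 erythroid markers summed to at most 0.169 CPM, the 4 B cell markers to 2.86 to 5.09 CPM and the 4 epithelial or stromal markers to 0.430 to 1.14 CPM.

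Many mitosis genes carry a cell cycle homology region (CHR) close to their start, a DNA element known as the contact point of the DREAM and MuvB complexes, which repress or activate these genes with the cell cycle, often beside CCAAT boxes bound by NF-Y. RefSeq promoters (GRCh38.p14, 250 bases before to 50 after the first listed start) were found for 27 of the 32 genes; AURKA, TTK, TPX2, BIRC5 and UBE2C were not in the table used. A CHR (TTTGAA or TTCGAA, either strand) lay in 19 of the 27 (70.4%), against 16.6% of 27305 first promoters of all genes and 11.5% of 10132 promoters of the genes tested. CCAAT on either strand lay in 21 of the 27 (77.8%), against 35.7% and 36.7%. Both elements were present in 16 of the 27 (59.3%), against 6.58% and 4.90%. A CHR began 18 to 30 bases before the start in 10 of the 27 (37.0%), a window set after the positions were seen, and in 0.553% of the promoters of the genes tested. The 250 bases before the start are shown for the 4 genes with a CHR that had the highest mean level, as examples of how the elements sit, with matches to CHR (TTTGAA or its reverse complement TTCAAA) and CCAAT (or its reverse complement ATTGG) in capitals. The stretches are chr10:128126424-128126673, minus strand, for MKI67, chr17:40417897-40418146, minus strand, for TOP2A, chr1:214602945-214603194, plus strand, for CENPF and chr15:40160819-40161068, plus strand, for BUB1B.
MKI67: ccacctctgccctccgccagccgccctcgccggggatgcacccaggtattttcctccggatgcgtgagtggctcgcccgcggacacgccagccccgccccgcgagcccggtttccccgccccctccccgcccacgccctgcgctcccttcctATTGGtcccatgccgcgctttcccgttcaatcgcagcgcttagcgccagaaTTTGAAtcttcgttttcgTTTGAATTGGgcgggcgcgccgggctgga
TOP2A: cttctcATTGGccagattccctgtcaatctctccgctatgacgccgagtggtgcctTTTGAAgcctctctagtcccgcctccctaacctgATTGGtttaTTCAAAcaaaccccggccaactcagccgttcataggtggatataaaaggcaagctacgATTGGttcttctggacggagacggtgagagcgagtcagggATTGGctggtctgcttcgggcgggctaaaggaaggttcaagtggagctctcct
CENPF: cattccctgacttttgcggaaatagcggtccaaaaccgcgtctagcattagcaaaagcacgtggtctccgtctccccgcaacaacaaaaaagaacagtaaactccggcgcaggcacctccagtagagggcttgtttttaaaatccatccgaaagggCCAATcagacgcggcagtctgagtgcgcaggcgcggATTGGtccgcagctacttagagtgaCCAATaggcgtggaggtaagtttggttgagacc
BUB1B: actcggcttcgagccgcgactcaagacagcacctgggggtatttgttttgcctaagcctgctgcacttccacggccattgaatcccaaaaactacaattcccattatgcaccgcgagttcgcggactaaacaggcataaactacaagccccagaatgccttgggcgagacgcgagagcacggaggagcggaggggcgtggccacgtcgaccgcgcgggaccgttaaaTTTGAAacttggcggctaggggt
In MKI67 the CHR matches began 47 and 29 bases before the start, and the second shares its last base with a CCAAT match. TOP2A held 2 CHR matches, 194 and 151 bases before the start, and 4 CCAAT matches. The CHR of CENPF began at base 41 counted from the start and is therefore outside the printed stretch, while 3 of its CCAAT matches are inside it. BUB1B had a single CHR, 23 bases before the start, and no CCAAT match in the window. These matches describe the letters of the promoters, and binding was not measured.

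With the combination, the mitosis genes were at lower levels than with venetoclax, by a median log2 difference of −0.48, where the median of all 12690 genes tested was −0.0083. The genes furthest down were MKI67, the proliferation marker Ki-67 (−1.43, SE 0.35), ANLN (−1.05, SE 0.33), CENPE (−1.04, SE 0.59), CENPF (−0.92, SE 0.30) and TOP2A (−0.80, SE 0.23). The cyclin B genes CCNB1 and CCNB2, the CDK1 phosphatase gene CDC25C, PTTG1, UBE2C and CDC20 lay between −0.20 and 0.12. No mitosis gene passed the test: the edgeR quasi-likelihood test with Benjamini-Hochberg adjustment called 0 of the 32 (0.0% of all genes), and the smallest adjusted p among them was 0.308, for MKI67. At an unadjusted p under 0.05 it placed 13 of the 32 lower, against 5.48% of all genes, and 0 higher, against 5.33%. DESeq2 called 1 of the 32, MKI67 (adjusted p = 0.00711), where 1.09% of all genes were called lower and 2.45% in either direction, and limma-voom called 0.

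In sign, 30 of the 32 were lower with the combination, against 50.9% of all genes, CDC25C and CDC20 being the exceptions. The 2 combination libraries lay below both venetoclax libraries for 23 of the 32, against 18.9% of all genes, and above both for 0, against 19.2%. Without venetoclax replicate 2 the median difference was −0.33, and again 30 of the 32 were lower (49.3% of all genes), with CENPE and HMMR as the exceptions. Both combination libraries were then below venetoclax replicate 1 for 29 genes (37.2% of all genes) and above it for 1, HMMR (36.5%). Of the 32, 15 were lower at an unadjusted p under 0.05 in edgeR (7.23% of all genes), and edgeR called 0 (0.173% of all genes in either direction). With a replicate block and without that library edgeR called MKI67 and CENPF lower (adjusted p = 0.0256 and 0.0480), where 0.701% of all genes were called lower, and the block with all 6 libraries called 0 of the 32. DESeq2 without that library called MKI67 and TOP2A lower (adjusted p = 0.00389 and 0.0287), where 1.60% of all genes were called lower. Set against venetoclax replicate 2 alone, the combination had 20 mitosis genes called by edgeR, 19 of them lower and CDC20 higher, where 13.8% and 13.5% of all genes were called lower and higher, with the single venetoclax library assumed to vary like the other groups. With scaling by library size only, the median of all genes was 0.26 and that of the mitosis genes −0.16, a difference of −0.42 relative to all genes, with 23 of the 32 lower in sign and 30 below the median of all genes. The signs of CCNB1, CCNB2, CKS2, PLK1, KIF2C, UBE2C and PTTG1 turned under that scaling.

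**Figure D1:**
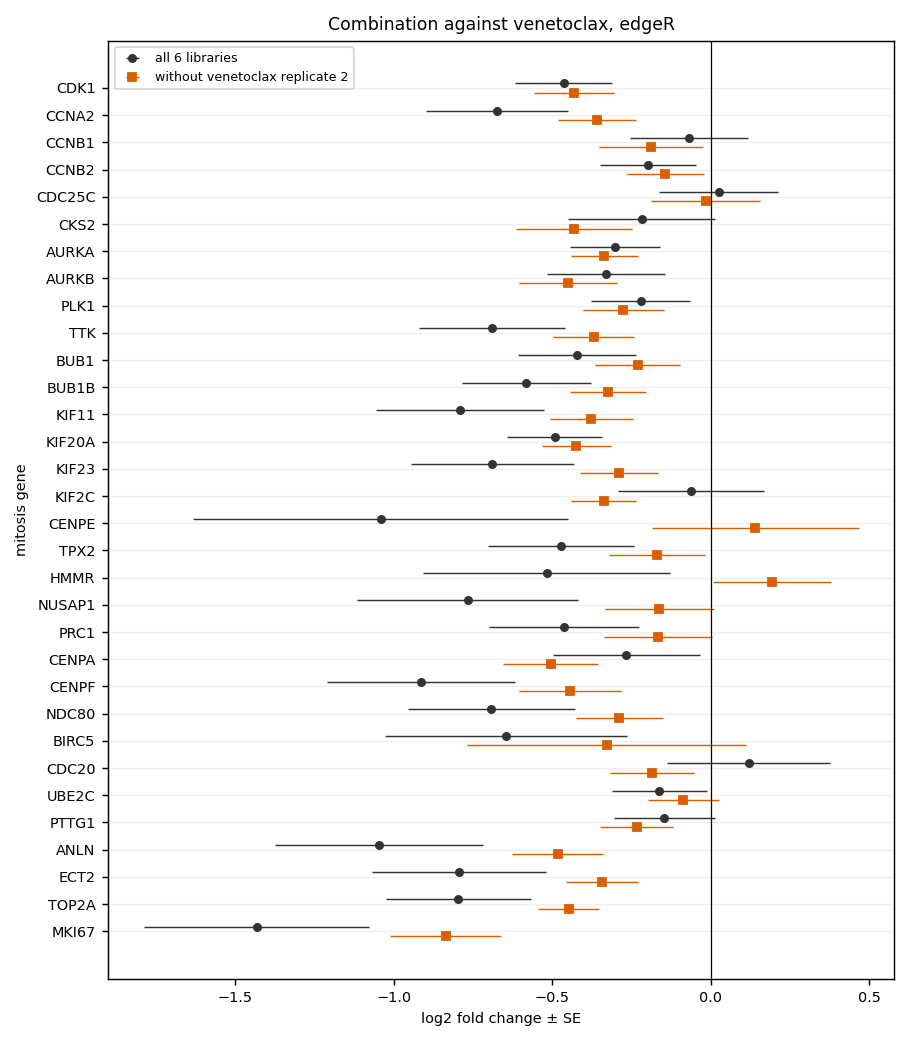
Log2 fold change of each of the 32 mitosis genes with the combination against venetoclax (horizontal axis, bars are ± SE from edgeR), for all 6 libraries (circles) and without venetoclax replicate 2 (squares). MKI67 lies furthest left in both fits (−1.43 and −0.84), while CENPE and HMMR cross zero when that library is left out.

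Venetoclax and CSA alone were set side by side to see how the mitosis genes differed between the single drugs. Levels with venetoclax were higher for 26 of the 32 genes (49.8% of all genes), with a median log2 difference of 0.42 (−0.0032 over all genes). The largest differences were those of CENPE (1.36, SE 0.60), MKI67 (1.04, SE 0.35) and ANLN (0.96, SE 0.33), which without venetoclax replicate 2 became 0.18 (SE 0.32), 0.44 (SE 0.18) and 0.39 (SE 0.14). The smallest unadjusted p was that of CDK1 (0.57, SE 0.15, edgeR unadjusted p = 0.00987, adjusted p = 0.633), which without that library had the largest difference, 0.54 (SE 0.13). edgeR called 0 of the 32 (0.0% of all genes) and DESeq2 (0.496% of all genes) and limma-voom called 0, while 9 were higher at an unadjusted p under 0.05 in edgeR (2.34% of all genes), and 16 with a replicate block (5.60%). Both venetoclax libraries exceeded both CSA libraries for 20 genes (20.8% of all genes), and the reverse held for 0 (19.9%). Without venetoclax replicate 2, all 32 were higher with venetoclax (48.5% of all genes), by a median of 0.20, and 26 lay above both CSA libraries (34.9%). Then 5 were higher at an unadjusted p under 0.05 (1.60% of all genes), or 16 with the block (4.22%), and edgeR again called 0 in both fits. Venetoclax replicate 2 alone against CSA had 20 mitosis genes called, 18 higher (17.4% of all genes) and KIF2C and CDC20 lower (17.3%). Scaling by library size only gave a median of 0.038, or 0.35 relative to all genes, with CCNB1 and PLK1 among the 15 genes then lower in sign and 3 below the median of all genes.

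Between the combination and CSA alone the measured differences were smaller. The median log2 difference was −0.056 (−0.0020 over all genes), the 32 values ran from −0.40 for MKI67 to 0.32 for CENPE, and 25 of the 32 were lower (50.3% of all genes). edgeR called 0 of the 32 (0.0% of all genes) and placed 0 at an unadjusted p under 0.05 in either direction (1.69% of all genes lower and 1.95% higher), and DESeq2 (0.441% of all genes) and limma-voom also called 0. Combination libraries lay below both CSA libraries for 11 genes (23.7% of all genes) and above both for 1, HMMR (23.5%). Without venetoclax replicate 2 in the fit, which narrows the SE but leaves these 4 libraries as they are, 3 genes were lower at an unadjusted p under 0.05 (5.83% of all genes) and edgeR called 0 (0.189% of all genes): AURKB (−0.35, SE 0.13), KIF20A (−0.25, SE 0.091) and MKI67 (−0.40, SE 0.15). With the block as well, 9 were lower (10.8% of all genes) and 2 higher (11.0%) at that p, again with 0 called. The 3 comparisons share libraries, so their values are given side by side and are not independent of each other.

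Seen by library, venetoclax replicate 1 alone had 26 of the 32 genes above all 4 libraries that had received CSA, against 23.3% of all genes. Both venetoclax libraries were above those 4 for 20 genes, against 11.9%. Venetoclax replicate 2 was the highest of the 6 for 22 genes (35.6% of all genes). Venetoclax replicate 1 was the highest for 8 and another library for 2, and a combination library was the lowest for 23. The shares of all genes were not taken for these last counts. The median level of the 32 genes, as log2 relative to the mean of the CSA libraries, was 0.21 and 0.61 in venetoclax replicates 1 and 2, −0.037 and 0.037 in the CSA libraries and −0.11 and −0.028 in the combination libraries. As a share of all counts, unscaled, the 32 genes made up 0.540% and 0.486% in the venetoclax libraries, 0.433% and 0.457% under CSA, and 0.395% and 0.394% in the combination. Both measures put the venetoclax libraries highest and the combination libraries lowest or level with CSA, but they order the venetoclax libraries in opposite ways. The total behind the share of replicate 2 includes its 41.5% of mitochondrial counts.

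**Figure D2:**
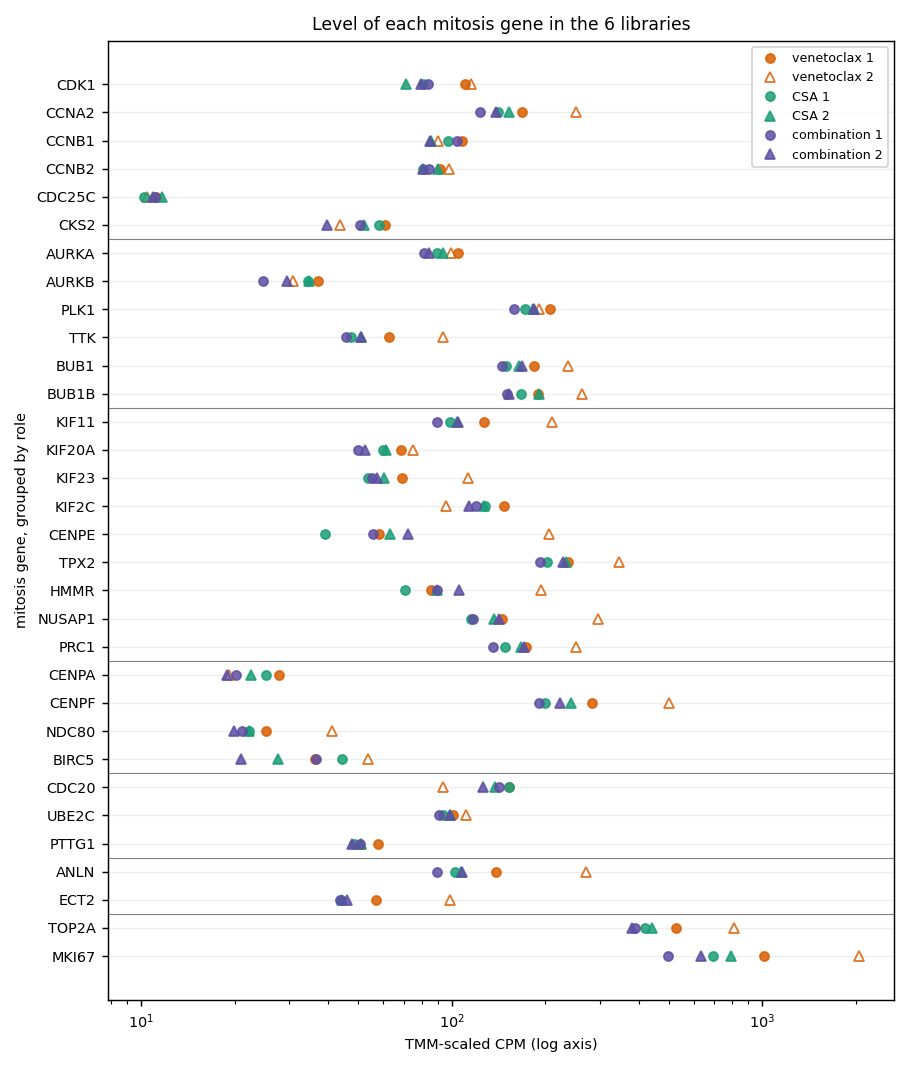
TMM-scaled CPM (horizontal log axis) of each mitosis gene, grouped by role, with 1 point per library: circles for replicate 1, triangles for replicate 2, open triangles for venetoclax replicate 2. Venetoclax replicate 1 lies to the right of all CSA and combination libraries for 26 of the 32 genes, and venetoclax replicate 2 spreads from far right (CENPE, HMMR) to far left (CDC20, KIF2C).

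Per kilobase of exon, the mean levels of the 32 genes ran from 82.9 CPM per kb for CKS2, 77.0 for UBE2C, 76.8 for TOP2A and 73.8 for MKI67 down to 8.73 for CENPE, 7.03 for NDC80 and 3.27 for CDC25C. Exons of 12 of the 32 overlap another annotated gene (9 on the opposite strand), among them CCNA2 with EXOSC9, CDC25C with FAM53C and KIF20A with CDC23 and BRD8. The longest overlaps were on the same strand, 3181 bases of PRC1 with AC068831.7 and 1787 bases of NUSAP1 with AC087721.2. Neither of these partner genes is in the count table, and 7 of the 12 members overlap a gene that is. The sources used here do not state whether counting used strand, and overlaps on the same strand would remain in either case. Reads in such overlaps may therefore not all belong to the gene named.

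Among the cyclin and CDK1 genes, CDK1 itself and CCNA2 had larger differences between the combination and venetoclax than the B-type cyclins, with all libraries and without venetoclax replicate 2. CDK1, the kinase that drives entry into mitosis (chr10:60778331-60794852, plus strand, GRCh38), had 110.5 and 115 CPM in the venetoclax libraries, 80.8 and 71.1 under CSA, and 83.8 and 79.6 in the combination. Both venetoclax libraries were above the other 4, and they lay close together. Its fold change with the combination against venetoclax was −0.46 (SE 0.15) with all libraries and −0.43 (SE 0.13) without venetoclax replicate 2, and that of venetoclax against CSA was 0.57 (SE 0.15) with all libraries and 0.54 (SE 0.13) without venetoclax replicate 2. Against CSA the combination gave 0.11 (SE 0.15), its libraries lying within or just above the CSA range. CCNA2, cyclin A, which partners CDK2 and CDK1 from S phase on, had 169 and 250.4 CPM in the venetoclax libraries, 141 and 153 under CSA, and 123 and 139 in the combination. The venetoclax libraries were again the highest pair and the combination the lowest, and the fold change against CSA was −0.16 (SE 0.22). Against venetoclax it was −0.67 (SE 0.22) with all libraries and −0.36 (SE 0.12) without venetoclax replicate 2.

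CCNB1, the main cyclin of CDK1 in mitosis, had 108 and 89.9 CPM in the venetoclax libraries, 97.0 and 85.9 under CSA, and 104 and 84.9 in the combination. All 3 groups overlapped, replicate 1 being above replicate 2 in each. Its fold change for the combination against venetoclax was −0.069 (SE 0.19) with all libraries and −0.19 (SE 0.17) without venetoclax replicate 2. Venetoclax against CSA gave 0.11 (SE 0.19) with all libraries and 0.23 (SE 0.16) without venetoclax replicate 2, and the combination against CSA 0.043 (SE 0.19). For CCNB2, the other B-type cyclin, the value against venetoclax was −0.20 (SE 0.15) with all libraries and −0.14 (SE 0.12) without venetoclax replicate 2. CDC25C, the phosphatase that activates CDK1 and the lowest of the 32 per kilobase, stood at 10.2 to 11.7 CPM in all 6 libraries, with a fold change against venetoclax of 0.025 (SE 0.19) with all libraries and −0.017 (SE 0.17) without venetoclax replicate 2. CKS2, a small subunit that binds CDK1, against venetoclax gave −0.22 (SE 0.23) with all libraries and −0.43 (SE 0.18) without venetoclax replicate 2, and against CSA −0.29 (SE 0.23). For CKS2 venetoclax replicate 2 lay inside the combination range, and without it the groups did not overlap.

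All 6 genes grouped as mitotic kinases had both combination libraries below both venetoclax libraries (18.9% of all genes), though none passed the test. All 6 were also below venetoclax replicate 1 alone, where 37.2% of all genes were. PLK1, Polo-like kinase 1, which acts from mitotic entry to cytokinesis, had 207 and 191 CPM in the venetoclax libraries, 172 and 183 under CSA, and 158 and 183 in the combination. The highest combination library was close to the lowest venetoclax library. The fold change against venetoclax was −0.22 (SE 0.16) with all libraries and −0.28 (SE 0.13) without venetoclax replicate 2. It was −0.055 (SE 0.16) for the combination against CSA and 0.17 (SE 0.16) for venetoclax against CSA. AURKA, the Aurora kinase of the spindle poles, had a fold change against CSA of −0.15 (SE 0.14), and against venetoclax of −0.30 (SE 0.14) with all libraries and −0.34 (SE 0.11) without venetoclax replicate 2. AURKB, the Aurora kinase of the chromosomal passenger complex, which corrects faulty attachments, had 37.0 and 30.9 CPM in the venetoclax libraries, 34.3 and 34.6 under CSA, and 24.6 and 29.4 in the combination. Here the combination libraries were the lowest pair of the 6, and the fold change against venetoclax was −0.33 (SE 0.18) with all libraries and −0.45 (SE 0.15) without venetoclax replicate 2, and against CSA it was −0.35 (SE 0.18).

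The checkpoint genes of this group, which hold back anaphase until all chromosomes are attached, showed larger differences in the fit of 6 libraries. TTK, the kinase also called MPS1, had 62.7 and 93.6 CPM in the venetoclax libraries, 47.4 and 51.0 under CSA, and 45.7 and 51.1 in the combination. Its venetoclax libraries were both clear of the other 4, which lay within a narrow range. For the combination against venetoclax the fold change was −0.69 (SE 0.23) with all libraries and −0.37 (SE 0.13) without venetoclax replicate 2. For venetoclax against CSA it was 0.67 (SE 0.23) with all libraries and 0.35 (SE 0.13) without venetoclax replicate 2. BUB1, which recruits checkpoint proteins to kinetochores, gave −0.42 (SE 0.19) with all libraries and −0.23 (SE 0.13) without venetoclax replicate 2. BUB1B, which encodes the checkpoint protein BUBR1, gave −0.58 (SE 0.20) with all libraries and −0.32 (SE 0.12) without venetoclax replicate 2, and against CSA −0.24 (SE 0.20).

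The 9 spindle and motor genes had a median fold change against venetoclax of −0.52 with venetoclax replicate 2 and −0.17 without it. KIF11, the kinesin that pushes the spindle poles apart, had 127 and 209.9 CPM in the venetoclax libraries, 98.7 and 104 under CSA, and 89.8 and 105 in the combination. KIF23, a kinesin of the central spindle, had 69.0 and 113 CPM in the venetoclax libraries, 53.8 and 60.5 under CSA, and 55.2 and 57.4 in the combination. In both genes the venetoclax libraries were above all others, replicate 2 far above. For KIF11 the combination against venetoclax gave −0.79 (SE 0.26) with all libraries and −0.38 (SE 0.13) without venetoclax replicate 2, and for KIF23 −0.69 (SE 0.26) with all libraries and −0.29 (SE 0.12) without venetoclax replicate 2. Venetoclax against CSA gave for KIF11 0.73 (SE 0.26) with all libraries and 0.32 (SE 0.13) without venetoclax replicate 2, and for KIF23 0.67 (SE 0.26) with all libraries and 0.27 (SE 0.12) without venetoclax replicate 2. KIF20A, a kinesin needed for cytokinesis, had 68.8 and 75.2 CPM in the venetoclax libraries, 59.8 and 61.6 under CSA, and 49.8 and 52.5 in the combination. Its replicates were close in every group and the order of groups was venetoclax, CSA, combination without overlap. The fold change of KIF20A against CSA was −0.25 (SE 0.15), and against venetoclax it was −0.49 (SE 0.15) with all libraries and −0.42 (SE 0.11) without venetoclax replicate 2 (edgeR with all 6 libraries, unadjusted p = 0.0170, adjusted p = 0.372).

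Microtubule and kinetochore motor genes did not all follow that order. CENPE, a kinetochore kinesin that moves chromosomes to the spindle equator, had 58.3 and 206 CPM in the venetoclax libraries, 39.2 and 63.3 under CSA, and 55.9 and 72.3 in the combination. Its high venetoclax mean came from replicate 2, since replicate 1 lay among the combination and CSA libraries, and the fold change against venetoclax was −1.04 (SE 0.59) with all libraries and 0.14 (SE 0.33) without venetoclax replicate 2. HMMR, a spindle protein and hyaluronan receptor, had 85.4 and 194 CPM in the venetoclax libraries, 70.9 and 89.3 under CSA, and 89.5 and 105 in the combination. Venetoclax replicate 1 was below both combination libraries, and the fold change against venetoclax was −0.52 (SE 0.39) with all libraries and 0.19 (SE 0.19) without venetoclax replicate 2, and against CSA it was 0.28 (SE 0.39). KIF2C, a kinesin that disassembles microtubules, had 148 and 95.7 CPM in the venetoclax libraries, 128 and 127 under CSA, and 119.7 and 113 in the combination. Here venetoclax replicate 2 was the lowest of the 6 libraries and replicate 1 the highest, and the fold change was −0.063 (SE 0.23) with all libraries and −0.34 (SE 0.10) without venetoclax replicate 2. NUSAP1, TPX2 and PRC1, which bundle or nucleate spindle microtubules, gave −0.77 (SE 0.35), −0.47 (SE 0.23) and −0.46 (SE 0.24) against venetoclax. Without venetoclax replicate 2 these became −0.16 (SE 0.17), −0.17 (SE 0.15) and −0.17 (SE 0.17), and for venetoclax against CSA NUSAP1 gave 0.81 (SE 0.35) with all libraries and 0.20 (SE 0.17) without venetoclax replicate 2.

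At the centromere and kinetochore, CENPF, a large kinetochore protein that accumulates in G2, had 282 and 499 CPM in the venetoclax libraries, 199.9 and 242 under CSA, and 191 and 223 in the combination. Both venetoclax libraries were above the other 4, and the combination and CSA libraries overlapped. For the combination against venetoclax its fold change was −0.92 (SE 0.30) with all libraries and −0.44 (SE 0.16) without venetoclax replicate 2. For venetoclax against CSA it was 0.82 (SE 0.30) with all libraries and 0.35 (SE 0.16) without venetoclax replicate 2. NDC80, the microtubule-binding subunit of the outer kinetochore, gave −0.69 (SE 0.26) with all libraries and −0.29 (SE 0.14) without venetoclax replicate 2. CENPA, the histone variant that marks centromeres, had 27.8 and 19.1 CPM in the venetoclax libraries, 25.3 and 22.5 under CSA, and 20.2 and 18.9 in the combination. Venetoclax replicate 2 was as low as the combination libraries, and the fold change against venetoclax was −0.27 (SE 0.23) with all libraries and −0.50 (SE 0.15) without venetoclax replicate 2, and against CSA it was −0.29 (SE 0.23). BIRC5, survivin, a passenger complex subunit and inhibitor of apoptosis, had 36.2 and 53.8 CPM in the venetoclax libraries, 44.4 and 27.6 under CSA, and 36.4 and 21.0 in the combination. Replicates differed widely in every group and the groups overlapped, and BIRC5 against venetoclax gave −0.65 (SE 0.38) with all libraries and −0.33 (SE 0.44) without venetoclax replicate 2, and against CSA −0.33 (SE 0.38).

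The 3 genes of mitotic exit had the median nearest zero of the role groups against venetoclax with all libraries (−0.15). CDC20, the activator of the anaphase-promoting complex, had 153 and 93.8 CPM in the venetoclax libraries, 153 and 137 under CSA, and 142 and 126 in the combination. Venetoclax replicate 2 was the lowest library and replicate 1 level with the highest CSA library, and the fold change against venetoclax was 0.12 (SE 0.26) with all libraries and −0.19 (SE 0.13) without venetoclax replicate 2. UBE2C, the ubiquitin-conjugating enzyme of the complex, gave −0.16 (SE 0.15) with all libraries and −0.087 (SE 0.11) without venetoclax replicate 2. PTTG1, securin, which is destroyed at anaphase, gave −0.15 (SE 0.16) with all libraries and −0.23 (SE 0.12) without venetoclax replicate 2. Combination libraries lay below both venetoclax libraries for UBE2C and PTTG1, by narrow margins.

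The cytokinesis genes and the pair MKI67 and TOP2A had the largest median fold changes of the role groups against venetoclax, −0.92 and −1.11. These were −0.41 and −0.64 without venetoclax replicate 2. Each of these groups held only 2 genes, and KIF20A was counted with the spindle and motor genes, so the ranking depends on the grouping. ANLN, anillin, which organises the contractile ring, had 138 and 269.7 CPM in the venetoclax libraries, 103 and 107 under CSA, and 89.5 and 108 in the combination. ECT2, the exchange factor that activates RhoA at the cleavage plane, had 57.1 and 98.7 CPM in the venetoclax libraries, 43.8 and 44.3 under CSA, and 43.6 and 46.1 in the combination. In both genes each venetoclax library was above all 4 others, and CSA and combination libraries overlapped. For ANLN the fold change against venetoclax was −1.05 (SE 0.33) with all libraries and −0.48 (SE 0.14) without venetoclax replicate 2, and for ECT2 −0.79 (SE 0.27) with all libraries and −0.34 (SE 0.11) without venetoclax replicate 2. From CSA to venetoclax ANLN gave 0.96 (SE 0.33) with all libraries and 0.39 (SE 0.14) without venetoclax replicate 2, and ECT2 0.82 (SE 0.27) with all libraries and 0.37 (SE 0.11) without venetoclax replicate 2. TOP2A, the topoisomerase that untangles sister chromatids (chr17:40388516-40417950, minus strand), had 526 and 809 CPM in the venetoclax libraries, 419.8 and 441 under CSA, and 388 and 381 in the combination. The order of groups was venetoclax, CSA, combination without overlap. The fold change of TOP2A against venetoclax was −0.80 (SE 0.23) with all libraries and −0.45 (SE 0.096) without venetoclax replicate 2 (edgeR unadjusted p = 0.0142 and 0.00535). It was −0.16 (SE 0.23) for the combination against CSA, and for venetoclax against CSA 0.63 (SE 0.23) with all libraries and 0.28 (SE 0.097) without venetoclax replicate 2.

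MKI67, whose protein coats mitotic chromosomes and keeps them apart (chr10:128096659-128126385, minus strand), had the largest difference of the 32 between the combination and venetoclax, with all libraries and without venetoclax replicate 2. Its level was 1012 and 2040.2 CPM in the venetoclax libraries, 692 and 795 under CSA, and 497 and 634 in the combination. Every combination library was below every CSA library and every CSA library below every venetoclax library, and this order does not need venetoclax replicate 2. Against venetoclax the combination gave −1.43 (SE 0.35) with all libraries and −0.84 (SE 0.18) without venetoclax replicate 2, with edgeR unadjusted p = 0.00748 and 0.00486 and adjusted p = 0.308 and 0.155. Venetoclax against CSA gave 1.04 (SE 0.35) with all libraries and 0.44 (SE 0.18) without venetoclax replicate 2, and the combination against CSA −0.40 (SE 0.35) with all libraries and −0.40 (SE 0.15) without venetoclax replicate 2.

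**Figure D3:**
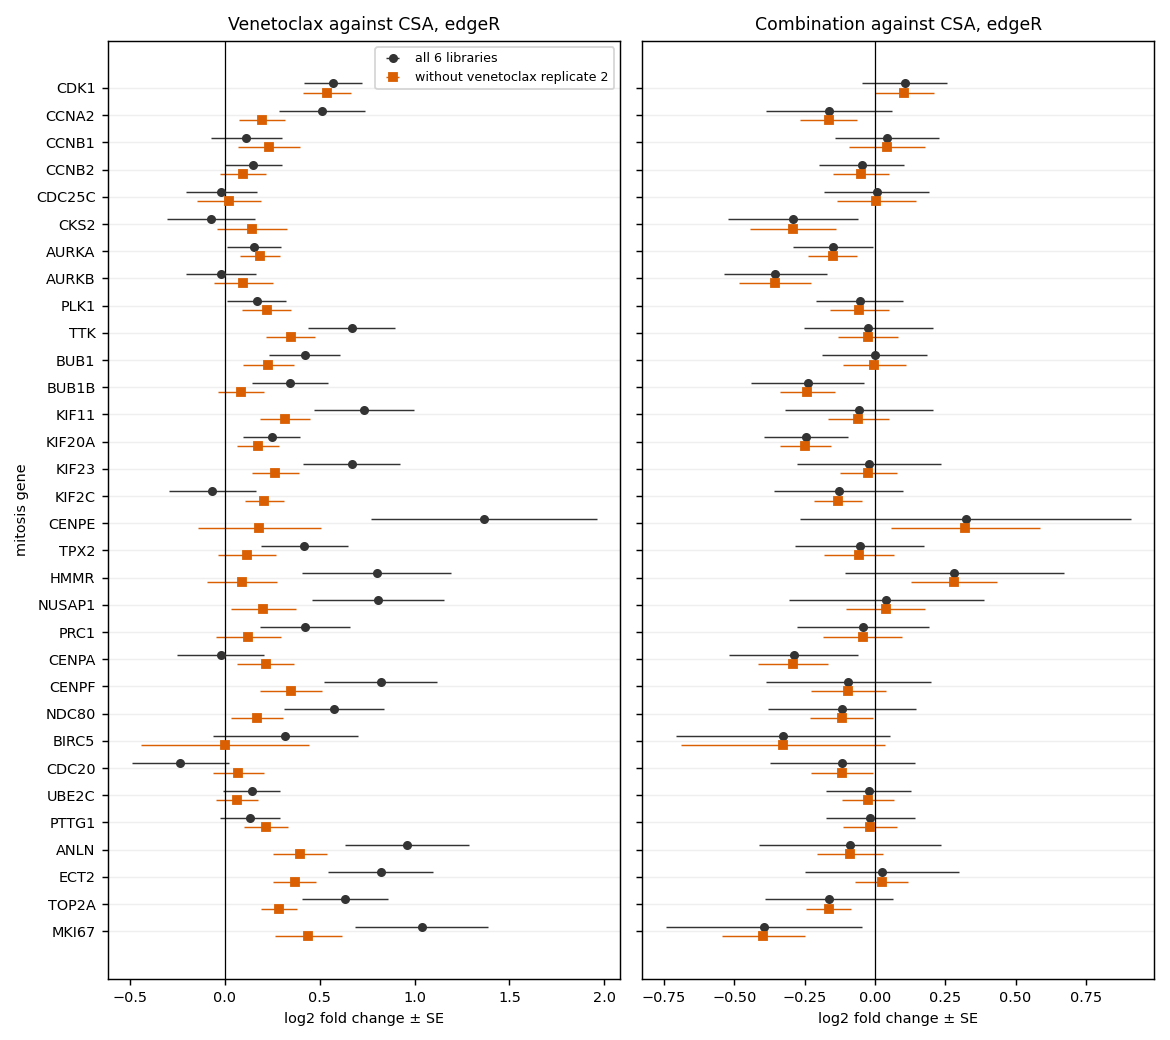
Log2 fold change (horizontal axes, bars are ± SE from edgeR) of the 32 mitosis genes for venetoclax against CSA (left) and the combination against CSA (right), with all 6 libraries (circles) and without venetoclax replicate 2 (squares). Without that library all 32 points on the left are above zero, most between 0 and 0.5, while on the right 25 of the 32 are below zero and most bars cross it.

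The 2 venetoclax libraries differed from each other across the mitosis genes in a way that followed the genes' length and base composition. Replicate 2 was above replicate 1 for 22 of the 32, by a median log2 difference of 0.50 (0.0074 over all genes), and the values ran from −0.70 for CDC20 to 1.82 for CENPE. Across the 32 genes, all read from the same libraries, this difference had a Pearson correlation of 0.67 with log2 exon length and −0.63 with GC content. Over 12445 genes the correlations were 0.19 and −0.52. In the CSA and combination groups the difference between replicates had a correlation with length of 0.44 and 0.48 over the 32 genes, with median differences of 0.073 and 0.079. The mitosis genes had a median GC content of 43.2%, against 49.3% for all genes, and a median exon length of 3873 bases, against 4993.

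Removing each library's trend with GC content brought the venetoclax replicates closer. The median difference became 0.18, running from −0.88 to 1.16, and the correlation with length stayed at 0.65. Median levels relative to CSA were then 0.20 and 0.36 in venetoclax replicates 1 and 2 and −0.16 and −0.12 in the combination libraries. With that trend removed edgeR still called 0 of the 32 against venetoclax (0.402% of all genes in either direction). The fold change of the combination against venetoclax had a correlation of −0.71 with log2 length across the 32 genes with all libraries and −0.15 without venetoclax replicate 2. How far the length and composition of the transcripts entered the differences between treatments was not tested.

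**Figure D4:**
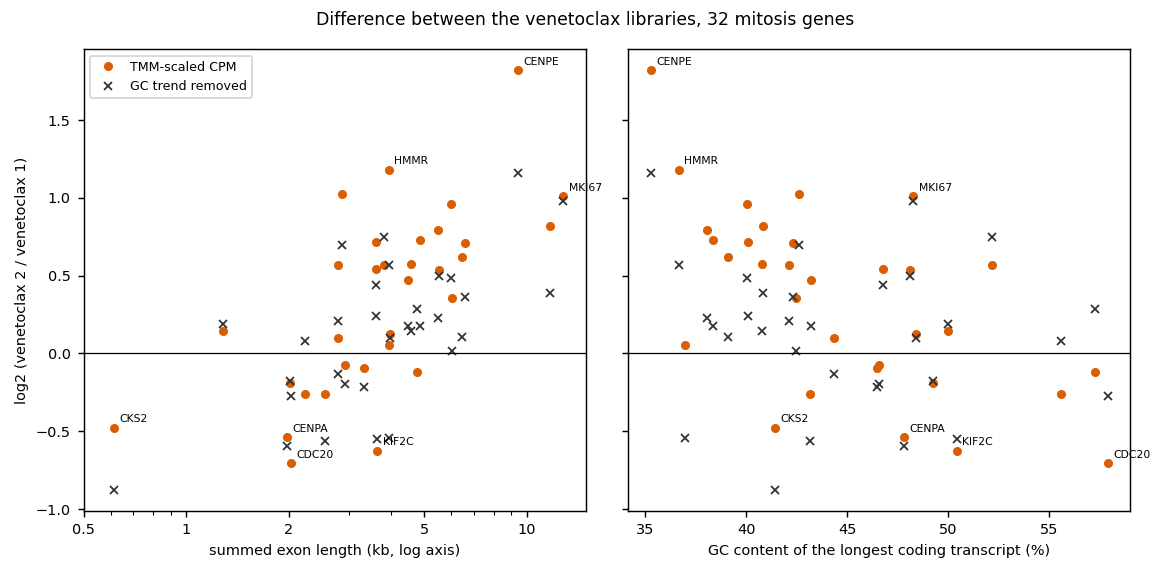
Log2 ratio of venetoclax replicate 2 to replicate 1 (vertical axis) for the 32 mitosis genes against summed exon length in kb (left, log axis) and GC content in percent (right), before (circles) and after (crosses) removal of the GC trend. Points rise with length in the left panel, from CKS2, CDC20 and CENPA below zero to CENPE at 1.82.

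A separate list of 60 other mitosis genes, all of them tested, was counted in the same way. With the combination 56 of the 60 were lower than with venetoclax, with a median of −0.42 (−0.28 without venetoclax replicate 2). Both combination libraries lay below both venetoclax libraries for 42 (18.9% of all genes) and above both for 0 (19.2%). At an unadjusted p under 0.05 edgeR placed 16 lower (5.48% of all genes), and it called 0. DESeq2 called 5 lower (1.09% of all genes), namely CDCA2, INCENP, KIF14, FBXO5 and KNL1. Against CSA 43 of the 60 were lower, with a median of −0.11, and venetoclax exceeded CSA for 50, with a median of 0.29 (0.19 without venetoclax replicate 2). CDCA2, a phosphatase-targeting protein of mitotic chromatin, had 74.0 and 81.8 CPM in the venetoclax libraries, 54.8 and 56.9 under CSA, and 43.8 and 41.6 in the combination. INCENP, the scaffold of the passenger complex that holds Aurora B, had 148 and 151 CPM in the venetoclax libraries, 114 and 114 under CSA, and 74.2 and 89.7 in the combination. In both genes the groups were ordered venetoclax, CSA, combination with no overlap, and the fold changes against venetoclax were −0.87 (SE 0.15) and −0.87 (SE 0.16), and −0.79 (SE 0.11) and −0.85 (SE 0.14) without venetoclax replicate 2. KIF14, a kinesin of cytokinesis, and FBXO5, an inhibitor of the anaphase-promoting complex, gave −1.14 (SE 0.27) and −1.04 (SE 0.28), and −0.74 (SE 0.16) and −0.61 (SE 0.16) without that library. In 50 promoters of this list a CHR was found in 74.0%, CCAAT in 74.0% and both in 62.0%.

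Genes that work beside the 32 differed in how far they shared the pattern. Of 18 condensin and cohesin genes, which compact chromosomes and hold sister chromatids, 17 had a lower level in the combination than in the venetoclax group, with a median of −0.46, or −0.25 without venetoclax replicate 2. edgeR called 0 of them and placed 6 lower at an unadjusted p under 0.05 (5.48% of all genes), and DESeq2 called 0. Examples against venetoclax were NCAPH (−0.73, SE 0.19), NCAPD3 (−0.53, SE 0.14), SMC1A (−0.44, SE 0.14) and SMC2 (−0.73, SE 0.25). With that library left out these were −0.48 (SE 0.10), −0.51 (SE 0.11), −0.37 (SE 0.10) and −0.38 (SE 0.15). The list of 16 genes of the anaphase-promoting complex included FZR1 and UBE2S, which are not core subunits. The median of the list was −0.0023 (−0.023 without venetoclax replicate 2), with 9 lower and 7 higher. edgeR called 0, and DESeq2 called ANAPC13 higher (2.45% of all genes in either direction). ANAPC13 and ANAPC16, small subunits of the complex, were the pair at an unadjusted p under 0.05 in edgeR (5.33% of all genes higher). Both were higher with the combination, by 0.92 (SE 0.21) and 0.61 (SE 0.19). Their levels in the combination libraries exceeded both venetoclax libraries, at 27.7 and 22.4 CPM in the venetoclax libraries, 38.2 and 30.0 under CSA, and 45.8 and 48.9 in the combination for ANAPC13. Among 22 transcription regulators of cell cycle genes 17 were lower than with venetoclax and 5 higher, with a median of −0.26, or −0.12 without venetoclax replicate 2. The values ran from −1.17 to 0.74, or from −1.02 to 1.90 without that library. edgeR called 0 of the 22 and placed 4 lower at an unadjusted p under 0.05 (5.48% of all genes). DESeq2 called E2F7, E2F8 and MYBL2 lower (1.09% of all genes). MYBL2, which joins MuvB to switch on mitotic genes, had 387 and 546 CPM in the venetoclax libraries, 331 and 347 under CSA, and 214 and 256 in the combination. Groups did not overlap, and the fold change was −0.99 (SE 0.21), or −0.71 (SE 0.13) without venetoclax replicate 2. FOXM1, the other activator of these genes, gave −0.48 (SE 0.18), or −0.39 (SE 0.17) without that library. The repressors E2F7 and E2F8 gave −1.15 (SE 0.21) and −1.17 (SE 0.26), or −1.02 (SE 0.18) and −0.78 (SE 0.14) without that library. Against CSA 11 of the 22 regulators were lower and 11 higher, with a median of 0.018 and values up to 1.17.

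Of 13 CDK inhibitor and growth arrest genes 12 were tested, with 6 lower and 6 higher with the combination than with venetoclax. The median was 0.013 (0.079 without venetoclax replicate 2) and 0 were called by edgeR or DESeq2. At an unadjusted p under 0.05 in edgeR 1 was lower and 2 were higher, against 5.48% and 5.33% of all genes. CDKN1A, which encodes the CDK inhibitor p21, was at 3.08 to 6.42 CPM in the 6 libraries and gave 0.65 (SE 0.26). BTG2, an antiproliferative gene, gave 0.63 (SE 0.24), and CCNG2 and CDKN2B gave −0.77 (SE 0.21) and −0.67 (SE 0.38). BTG2 gave 0.67 (SE 0.28) and CCNG2 −0.75 (SE 0.20) without venetoclax replicate 2. When that library was left out CDKN1A gave 0.43 (SE 0.22) and CDKN2B −0.27 (SE 0.38), and 0 genes were higher at that p. Of 9 G1 cyclin and kinase genes 8 were tested, with 6 lower, a median of −0.29 (−0.19 without venetoclax replicate 2) and 0 called by edgeR or DESeq2. At an unadjusted p under 0.05 in edgeR 1 was lower, against 5.48% of all genes. CCNE2, a cyclin of the G1/S transition, gave −0.62 (SE 0.21). CDK6, a kinase of G1, gave −0.56 (SE 0.24), and its D-type cyclin partners CCND3 and CCND2 gave −0.35 (SE 0.16) and 0.32 (SE 0.15). CCND2 also gave 0.32 (SE 0.12) without venetoclax replicate 2. In the fit lacking that library CCNE2 gave −0.38 (SE 0.16), CDK6 −0.18 (SE 0.11) and CCND3 −0.20 (SE 0.10), and 0 genes were lower and 1 higher at that p.

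DNA replication genes, which are transcribed earlier in the cycle, were set beside the mitosis genes. Of 46 such genes 41 had a lower level in the combination than in the venetoclax group, with a median of −0.38. edgeR called 0 and placed 16 lower at an unadjusted p under 0.05 (5.48% of all genes). DESeq2 called MCM10, RRM2 and TYMS lower (1.09% of all genes). Against CSA 43 of the 46 were lower, with a median of −0.24. Both combination libraries lay below both CSA libraries for 35 (23.7% of all genes) and above both for 0 (23.5%). The mitosis genes had a median of −0.056, with 11 of 32 below without overlap and 1 above. Venetoclax exceeded CSA for 29 of the 46, with a median of 0.094, where the mitosis genes had 0.42 (0.13 and 0.20 without venetoclax replicate 2). By library the replication genes lay at 0.13 and 0.069 with venetoclax and −0.22 and −0.25 with the combination, relative to CSA. The mitosis genes lay at 0.21, 0.61, −0.11 and −0.028. With the GC trend removed the combination libraries lay at −0.26 and −0.28 for the replication genes and −0.16 and −0.12 for the mitosis genes. TYMS and RRM2, enzymes of nucleotide synthesis, and MCM10 and POLA1, replication factors, gave −0.83 (SE 0.15), −0.67 (SE 0.14), −0.87 (SE 0.17) and −0.58 (SE 0.17) against venetoclax and −0.58 (SE 0.15), −0.36 (SE 0.14), −0.39 (SE 0.17) and −0.21 (SE 0.17) against CSA. The difference between the lists was not tested. A CHR was found in 5.26% of 38 promoters of the replication genes and CCAAT in 60.5%.

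**Figure D5:**
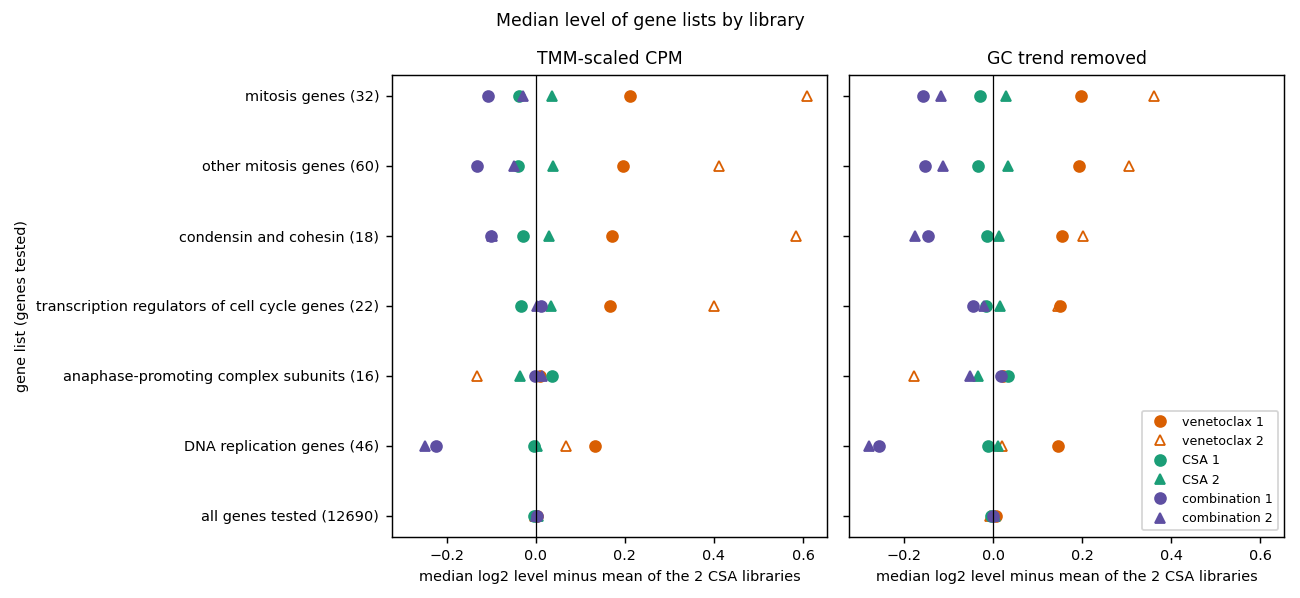
Median log2 level of each gene list relative to the mean of the CSA libraries (horizontal axes), with 1 point per library, for TMM-scaled CPM (left) and after removal of the GC trend (right). In the left panel the mitosis genes stand at 0.21 and 0.61 with venetoclax and at −0.11 and −0.028 with the combination. The DNA replication genes stand there at −0.22 and −0.25 with the combination. In the right panel the combination libraries stand at −0.16 and −0.12 for the mitosis genes and −0.26 and −0.28 for the replication genes.

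Within the 27 mitosis genes with a promoter, the 19 with a CHR had a median fold change of −0.58 for the combination against venetoclax and the 8 without one −0.24. Leaving out venetoclax replicate 2 made these medians −0.32 and −0.29. For venetoclax against CSA they were 0.58 and 0.12, or 0.22 and 0.19 without that library, and for the combination against CSA −0.057 and −0.073. Genes without a CHR match in the window included CENPE (−1.04), CCNA2 (−0.67) and CDC25C (0.025) against venetoclax, and those with one ran from MKI67 (−1.43) to CDC20 (0.12). These are descriptions of overlapping ranges and were not tested. A CHR near another start of the gene, or with letters other than TTTGAA or TTCGAA, was counted as absent.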

How the data were processed

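Gene expression was measured by RNA sequencing of 6 libraries, 2 for each treatment, grouped by their titles. The authors deposited a table of raw counts, whole numbers for each gene. The submitters' processing notes name STAR, RSEM, DESeq2 and the build hg38, without versions or roles; the annotation used and any use of strand were not given in the sources used here. That table holds 2 further per-sample columns that no label assigns to a sample, and they were not used. The treatment entry in the labels names gavage and was not used; doses are from the growth protocol. Symbols matched 20148 of 20263 identifiers and GENCODE 29 (GRCh38) matched 20224, from which coordinates, summed exon lengths and GC content were taken.

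Genes passing filterByExpr (12690) were scaled by TMM and tested with edgeR 4.0.16 (glmQLFit, robust, then glmQLFTest, two-sided; R 4.3.3), with all 6 libraries and their group in a single model that left 3 residual degrees of freedom. P-values were adjusted by Benjamini-Hochberg over all genes, with a threshold of 0.05. The pipeline was tested on simulated data in which all libraries had the same spread for a given gene. An unlike library such as venetoclax replicate 2 was not part of that test. Replicate numbers are shared in the labels without a stated pairing. Deviations of same-numbered libraries had correlations of 0.19 (venetoclax and CSA), 0.25 (venetoclax and combination) and 0.16 (CSA and combination), so results are given with the number as a block where that changed a call or moved a count by more than 1.5 times. Alternatives were DESeq2 1.42.0, limma-voom (limma 3.58.1), other scalings and filters, a replicate block, each library left out in turn, and removal of each library's loess trend (span 0.3) with GC content, available for 12680 genes. Counting error is small at these depths, and the number of libraries limits the precision. The members and gene lists were chosen with earlier results of these data known. Fold changes were given for all 32 genes against venetoclax. In the other comparisons the 10 with the smallest unadjusted p and CDK1, CCNB1, PLK1, MKI67 and TOP2A were named, with up to 4 genes from each other list by the smallest unadjusted p. Other members were named where they set the range of a list, and promoters were shown for up to 4 members with a CHR by mean CPM.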

Additional observations from a re-analysis of the deposited data

How the results depend on the processing

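Fits differed mostly in the number of calls. For the combination against venetoclax, the number of mitosis genes called was 1 with DESeq2, 2 with DESeq2 without venetoclax replicate 2, 2 with the block without it (MKI67 and CENPF), 0 with the other settings that kept all libraries, and 0 to 20 with one library left out, the 20 being without venetoclax replicate 1. All genes called were 311 with DESeq2, 15 with no filter, 51 with the GC trend removed, 0 to 3459 with one library left out, and, without venetoclax replicate 2, 481 (DESeq2), 214 (block) and 64 (GC trend removed). For the combination against CSA they were 56 (DESeq2), 1 (limma-voom), 43 (limma-voom with quality weights), 4 (no filter), 24 (4 libraries only), 0 to 24 with one library left out, and, without venetoclax replicate 2, 251 (DESeq2), 56 (block) and 21 (GC trend removed). For venetoclax against CSA they were 63 (DESeq2), 2 (no filter), 0 to 4405 with one library left out, and 106 (DESeq2) and 15 (block) without venetoclax replicate 2; 0 to 20 mitosis genes were called with one library left out.

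The median of the mitosis genes was −0.16 (combination against venetoclax) and 0.038 (venetoclax against CSA, 15 genes lower) with library size alone, and ran from −0.71 to −0.33 and 0.20 to 0.59 with one library left out, with 0 to 7 genes lower with venetoclax than with CSA. Without venetoclax replicate 2, venetoclax against CSA gave 0.20 with 0 lower (DESeq2), 0.23 with 2 lower (block) and 0.19 with 0 lower (GC trend removed), and 1 gene was higher with no overlap for the combination against venetoclax.

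A replicate block in the fit of 6 libraries called 0 mitosis genes in each comparison, with medians of −0.46, −0.061 and 0.40 for the combination against venetoclax, against CSA, and venetoclax against CSA. With the block and the GC trend removed, all genes called were 41 and 1 for the combination against venetoclax and CSA.

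These log2 fold changes turned sign; the causes were not tested. For the combination against venetoclax they were CCNB1 0.18, CCNB2 0.087, CKS2 0.00307, PLK1 0.030, KIF2C 0.13, UBE2C 0.12, PTTG1 0.10 (library size alone); CCNB1 0.010, CDC20 −0.013 (GC trend removed); CCNB1 0.025, CDC20 −0.00799 (GC trend removed with the block); and, without venetoclax replicate 2, CDC25C −0.020, CENPE 0.14, HMMR 0.19, CDC20 −0.19 (DESeq2), CDC25C −0.058, HMMR 0.049, CDC20 −0.10 (block) and CDC25C −0.044, CENPE 0.028, HMMR 0.098, CDC20 −0.14 (GC trend removed). With one library left out the values ran from −0.22 to 0.072 for CCNB1, from −0.017 to 0.073 for CDC25C, from −0.43 to 0.043 for CKS2, from −0.34 to 0.28 for KIF2C, from −1.68 to 0.14 for CENPE, from −0.99 to 0.19 for HMMR, from −0.50 to 0.030 for CENPA, from −0.19 to 0.51 for CDC20. For the combination against CSA they were CDK1 −0.036, CCNB1 −0.022, PLK1 0.022 (GC trend removed), CDK1 −0.036, CCNB1 −0.022, PLK1 0.019 (also without venetoclax replicate 2) and CDK1 −0.031, CCNB1 −0.029, PLK1 0.017 (also the block), and with one library left out from −0.11 to 0.18 for CCNB1, from −0.16 to 0.048 for PLK1, from −0.78 to 0.055 for BIRC5. For venetoclax against CSA they were CCNB1 −0.17, PLK1 −0.13 (library size alone), CCNB1 −0.032 (GC trend removed) and CCNB1 −0.054 (also the block), and with one library left out from −0.024 to 0.23 for CCNB1. A group left with 1 library is assumed to vary like the other groups.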
